A study of Mus musculus with 8 samples.

Results

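The genes described here are 35 genes of the amino acid and endoplasmic reticulum stress responses of the mouse, measured in liver. The list is one of gene names, with no threshold on a value. They are 35 of 22225 genes tested, and 64 of the 41174 gene probes on the array belong to them. For each gene the probe with the highest mean log2 signal over the 8 arrays was used. All 35 passed the filter on low signal. They fall into 2 groups. The first holds 19 genes of amino acid supply and of the transcription factor ATF4, from Asns to Vldlr. The second holds 16 genes of protein folding and quality control in the endoplasmic reticulum (ER), from Hspa5 to Ern1.

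Livers came from mice of the strain ICR scid aged 8 weeks, a background that lacks mature B and T cells. Whole liver RNA was pooled by group and hybridised to 2-colour arrays, each carrying a pool of 1 group against a pool of its control. Untreated males were set over untreated females (10 mice of each sex by the labels), with no virus in either. Males killed 5 days after Adeno-Cux2, an adenovirus carrying the homeobox factor Cux2, were set over males given the control virus Adeno-CMV for the same time (12 and 13 mice). Females were compared in the same way at day 5 (8 and 7 mice), and males at day 3 (11 and 11 mice). Every treated pool, control included, had therefore received an adenovirus, and no array set a treated pool against an untreated one. Each comparison had 2 arrays with separate pools and with the dyes reversed. Values below are log2 ratios ± standard error of a limma model, with n = 2 arrays per comparison, and called means an adjusted p below 0.05 (Benjamini-Hochberg over all 22225 genes). The p-values measure the spread between pools, not between mice. Where an array is left out below, its comparison keeps 1 array, and the error and p rest on the spread in the other comparisons, which the lone array is assumed to share. In whole liver RNA, fewer cells of a type and less RNA per cell cannot be told apart.

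All 14 measured hepatocyte markers were well above background in every pool. The Cux2 probe was higher in the male pools labelled Adeno-Cux2, by 0.60 ± 0.09 at day 5 and 0.49 ± 0.09 at day 3. In females it was lower in the pools so labelled, at −0.61 ± 0.09, and whether it reads the viral copy is not known. Without virus the probe was at −1.88 in males over females, with log2 signals of 7.36 and 7.66 against 9.10 and 9.68. Across genes, the Pearson r between the paired arrays ran from 0.612 to 0.893. Exocrine pancreas markers stood apart on 3 arrays, with a median over 12 markers of 3.51 in untreated replicate 2, 4.29 in female day 5 replicate 1 and 2.83 in male day 3 replicate 2. On the other array of those comparisons the median was −0.09, −0.71 and 0.06. Skeletal muscle markers had ratios below 0 on both arrays of females at day 5 (medians over 11 markers of −1.65 and −2.78). Their summed signal was 5162 to 24850 in the female Adeno-CMV pools and 1898 to 2800 in the female pools labelled Adeno-Cux2. In untreated pools it was 1682 to 2239 in males and 1671 to 1764 in females. In males at day 5 it was 2049 to 16270 in the pools labelled Adeno-Cux2 and 1610 to 5394 in the Adeno-CMV pools.

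ATF4 is a transcription factor made when kinases that sense amino acid shortage, misfolded protein or other stress phosphorylate the initiation factor eIF2 alpha, which slows general translation while favouring that of the Atf4 mRNA. It binds composite C/EBP-ATF sites (CARE) and drives genes of amino acid synthesis, uptake and tRNA charging, together with stress regulators such as Atf3, Ddit3 and Trib3. ER chaperones answer mainly to the other arms of the unfolded protein response, ATF6 and the spliced form of XBP1, which act through the ER stress response element (ERSE) and related sites. Hepatocytes secrete most plasma proteins and keep these chaperones at high levels. The arrays read RNA, not the translation of Atf4, the splicing of Xbp1 or the cleavage of ATF6.

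Promoter sequences were taken from RefSeq on GRCm38.p6, from 250 bases before to 50 after each gene start. They were found for 17 of the 19 ATF4 and amino acid genes and all 16 ER genes. Slc7a5 and Nars had no entry. A CARE core was searched as TGATGNAA and an ERSE as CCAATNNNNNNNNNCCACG, each on both strands. A gene was counted if any of its promoters held the motif, and the 17 genes had 21 promoters. The CARE core was in 7 of 17 ATF4 and amino acid genes (41.2%), 1 of 16 ER genes (6.25%, Herpud1) and 4.51% of all 27025 genes with a promoter. The ERSE was in 8 of 16 ER genes (50%), in 0 of 17 of the ATF4 and amino acid genes and in 0.137% of all genes. A UPR element core, TGACGTGG, was in none of the 33 and in 0.714% of all genes. The searched letters share no overlap at the sites shown. The 200 bases before the gene start are given for 7 promoters that hold a searched motif, 4 with a CARE core and 3 with an ERSE, to show the letters in genes that rose and in genes that fell. Phgdh, Psat1 and Psph, whose ratios at male day 3 were among the larger ones, held none of the 3 motifs in these windows. Capitals mark the searched motif, and each runs 5′ to 3′ on the strand of its gene.
Asns, CARE 23 bases before the start, chr6:7693210-7693409, - strand: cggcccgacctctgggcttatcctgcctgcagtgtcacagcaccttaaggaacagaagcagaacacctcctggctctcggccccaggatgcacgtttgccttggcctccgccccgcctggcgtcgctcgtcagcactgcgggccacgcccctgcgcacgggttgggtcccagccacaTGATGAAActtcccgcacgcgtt
Atf3, CARE 110 bases before the start, chr1:191183334-191183533, - strand: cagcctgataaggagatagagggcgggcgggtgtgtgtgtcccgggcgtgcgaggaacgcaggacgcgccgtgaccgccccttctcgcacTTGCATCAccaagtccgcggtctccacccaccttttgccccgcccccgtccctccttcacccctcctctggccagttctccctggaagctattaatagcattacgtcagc
Slc7a11, CARE 66 and 47 bases before the start, chr3:50443614-50443813, - strand: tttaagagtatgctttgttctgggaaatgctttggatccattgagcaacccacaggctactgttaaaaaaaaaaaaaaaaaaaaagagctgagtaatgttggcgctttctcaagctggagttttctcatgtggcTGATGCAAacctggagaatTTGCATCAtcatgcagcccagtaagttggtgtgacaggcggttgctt
Chac1, CARE 193 bases before the start, chr2:119351042-119351241, + strand: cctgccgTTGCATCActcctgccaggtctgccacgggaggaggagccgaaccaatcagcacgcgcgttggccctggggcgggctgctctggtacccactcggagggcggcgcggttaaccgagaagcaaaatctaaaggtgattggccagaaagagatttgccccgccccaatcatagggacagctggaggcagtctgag
Hspa5, ERSE 65 bases before the start, chr2:34771890-34772089, + strand: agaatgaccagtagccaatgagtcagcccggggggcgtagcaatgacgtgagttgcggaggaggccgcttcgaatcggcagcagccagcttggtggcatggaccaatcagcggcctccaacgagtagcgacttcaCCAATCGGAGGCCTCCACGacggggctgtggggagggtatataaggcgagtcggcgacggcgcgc
Dnajc3, ERSE 105 bases before the start, chr14:118937732-118937931, + strand: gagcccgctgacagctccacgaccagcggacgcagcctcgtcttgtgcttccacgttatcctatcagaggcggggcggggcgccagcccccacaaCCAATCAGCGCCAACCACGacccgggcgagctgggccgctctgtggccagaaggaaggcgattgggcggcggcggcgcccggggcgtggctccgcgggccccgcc
Creld2, ERSE 126 bases before the start, chr15:88819446-88819645, + strand: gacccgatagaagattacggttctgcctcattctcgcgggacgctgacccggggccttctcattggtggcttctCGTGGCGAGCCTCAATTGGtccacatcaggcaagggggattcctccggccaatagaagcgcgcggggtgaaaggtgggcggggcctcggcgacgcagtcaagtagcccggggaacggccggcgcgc

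The other CARE cores lay in Trib3, Aars, Vldlr (in 1 of its promoters) and Herpud1. The other ERSEs lay in Hsp90b1, with 2 copies, and in Pdia6, Calr, Canx and Syvn1. A match describes letters in the sequence, not a bound site.

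In treated males the largest ratios among the 35 genes were those of Asns, Phgdh and Psat1, of asparagine and serine synthesis. Of the stress regulators, Atf3, Ddit3, Ddit4 and Sesn2 rose in males at both times, whereas Trib3 was not called and Chac1 fell at day 5. No ER gene was called higher at day 5, and 6 were at day 3. Of the 19 ATF4 and amino acid genes, 10 were higher in the male pools labelled Adeno-Cux2 at day 5 and 1 was lower, with a median log2 ratio of 0.42 against 0.01 over all genes. Among all genes 13.9% were called higher and 4.95% lower there. At day 3, 12 of the 19 were higher and 1 lower, with a median of 1.07, where 23.7% of all genes were called higher and 20.3% lower. In females at day 5, 7 were higher and 1 lower, with a median of 0.09, against 12.8% and 6.3% of all genes. Of the 16 ER genes, 0 were higher and 3 lower in males at day 5 (median −0.14), 0 higher and 1 lower in females (median 0.06), and 6 higher and 0 lower in males at day 3 (median 0.16). At an unadjusted p under 0.05 in limma, 1 ER gene was higher in males at day 5, 2 in females, and 0 were lower in males at day 3. After adjustment, 7 of the 19 (Asns, Ddit4, Psat1, Phgdh, Slc7a11, Slc3a2 and Slc7a5) and 0 of the 16 were higher in all 3 treated comparisons, as were 8.54% of all genes. Slc7a11 passed the filter on low signal only through pools labelled Adeno-Cux2, a selection that favours a difference. Its female call was lost under 10 of the 16 alternatives. Without Slc7a11 the numbers higher were 9, 6 and 11 of 18 in males at day 5, females and males at day 3, with medians of 0.41, 0.07 and 1.08, and 6 were higher in all 3. At least a 2-fold difference in either direction was reached by 4, 3 and 10 of the 19 in males at day 5, females at day 5 and males at day 3, and by 0 of the 16 in each. Over all genes these shares were 3.55%, 2.35% and 7.98%. The numbers called higher at day 5 rested on both arrays. In males 4 of the 19 were higher without replicate 1 and 3 without replicate 2, and in females 2 without replicate 1 and 5 without replicate 2. At day 3 the 11 rises of the first group other than Slc7a11 were called under all 16 alternative settings tried. Of the 6 ER rises at day 3, 1 (Dnajc3) was called under all of them. The ER median there was 0.30 on replicate 1 and 0.06 on replicate 2.

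**Figure D1:**
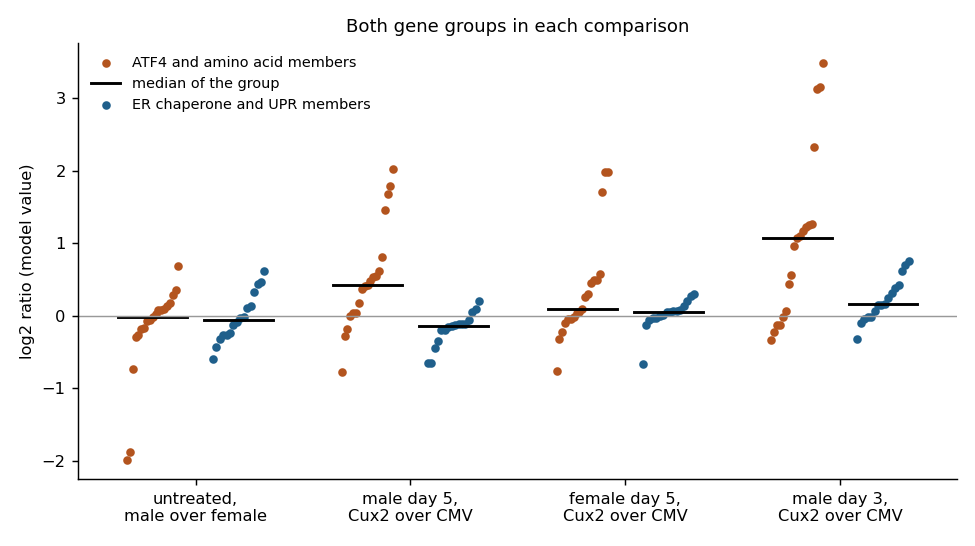
Log2 ratios (y axis, model values) of the 19 ATF4 and amino acid genes (brown) and the 16 ER chaperone and UPR genes (blue) in each of the 4 comparisons (x axis), with the median of each group as a black bar. UPR stands for unfolded protein response. The first group has medians of 0.42, 0.09 and 1.07 in males at day 5, females at day 5 and males at day 3, the second of −0.14, 0.06 and 0.16.

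Asns, which makes asparagine from aspartate and glutamine, had the largest ratio of the members in each treated comparison, in females within the error of Phgdh. Its probe lies at chr6:7625194-7625253 on mm8. At day 3 its log2 signal was 11.53 and 11.95 in the male pools labelled Adeno-Cux2 and 8.27 and 8.23 in the Adeno-CMV pools. At day 5 the male pools stood at 10.25 and 10.08 against 8.22 and 8.07, and the female pools at 10.14 and 9.51 against 7.80 and 7.87. Pools with and without Cux2 did not overlap in any of these comparisons, and the CMV pools lay between 7.80 and 8.27, the untreated ones between 7.90 and 8.35. The ratio was 3.49 ± 0.18 in males at day 3 (11.2-fold, adjusted p = 3.4e-05), 2.02 ± 0.18 in males at day 5 (4.05-fold, adjusted p = 0.000531) and 1.99 ± 0.18 in females at day 5 (3.96-fold, adjusted p = 0.000854). These calls held under all 16 alternatives, with ratios from 2.73 to 3.81, 1.38 to 2.20 and 1.27 to 2.45.

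The enzymes of serine synthesis from glycolysis also had their largest ratios in males at day 3. Phgdh, which catalyses the first step, had ratios of 3.17 and 3.14 on the arrays of male day 3, 1.76 and 1.81 on those of male day 5, and 2.32 and 1.64 on those of female day 5. Its model values were 3.15 ± 0.14 (8.88-fold, adjusted p = 2.5e-05), 1.79 ± 0.14 (adjusted p = 0.000316) and 1.98 ± 0.14 (adjusted p = 0.000446). Its other probes gave the same direction with smaller values, from 1.74 to 2.10 at male day 3. Psat1, the aminotransferase of the next step, had ratios of 3.06 and 3.18, 1.83 and 1.51, and 2.14 and 1.26 on the same arrays. The model gave 3.12 ± 0.31 (8.71-fold, adjusted p = 0.000332), 1.67 ± 0.31 (adjusted p = 0.0117) and 1.70 ± 0.31 (adjusted p = 0.0115). The day 5 calls of Psat1 were lost without either male array (adjusted p = 0.23 and 0.122) and, in females, without replicate 1 (1.08 ± 0.37, adjusted p = 0.178). Psph, which completes the pathway, had 1.26 and 1.08 at male day 3 and rose by 1.17 ± 0.14 (2.25-fold, adjusted p = 0.00073). It was at 0.37 ± 0.14 in males at day 5 and 0.48 ± 0.14 in females, which missed the threshold (adjusted p = 0.127 and 0.0567).

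In females at day 5 the array with the higher pancreas markers, replicate 1, also had the higher ratios of Asns (2.34 against 1.63), Phgdh and Psat1. Without that array Asns was at 1.53 ± 0.15 (adjusted p = 0.00706) and Phgdh at 1.61 ± 0.11 (adjusted p = 0.00536), both still called on the error taken from the other comparisons. In males at day 3 the array with low pancreas markers gave 3.17 ± 0.24 for Asns and 3.09 ± 0.23 for Phgdh when the other was left out. In untreated mice Psat1 was at 0.06 on replicate 1 and 1.32 on replicate 2, the array with the higher pancreas markers, and was not called (0.69 ± 0.31, adjusted p = 0.203).

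**Figure D2:**
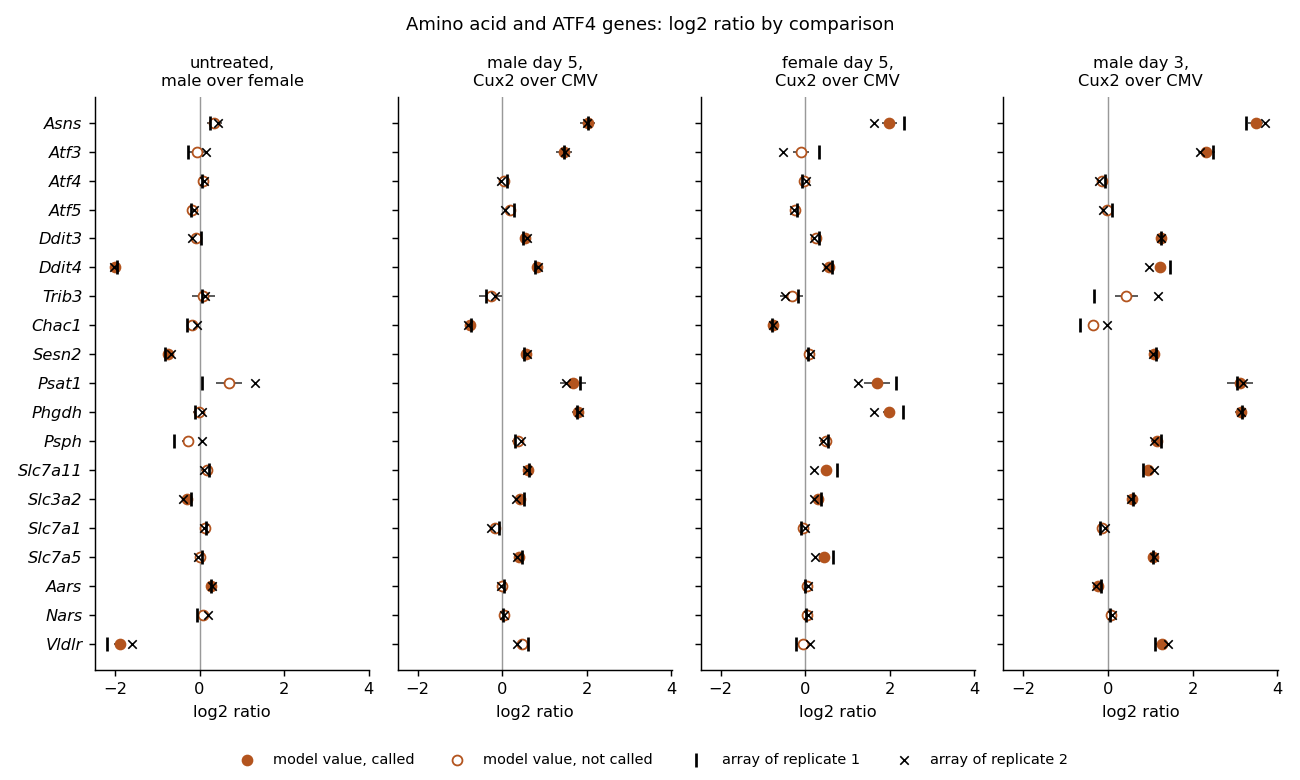
Log2 ratios (x axis) of the 19 ATF4 and amino acid genes (rows) in the 4 comparisons (panels): circles are model values with their standard error, filled where the gene was called, bars mark the array of replicate 1 and crosses that of replicate 2. Asns, Psat1 and Phgdh lie furthest right in every treated panel, at 3.12 to 3.49 in males at day 3.

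Among the stress regulators, Atf3, an ATF family repressor and activator induced early in many stresses, was higher in treated males, whereas in females its pools overlapped. Its log2 signal in males was 10.47 and 10.35 against 9.02 and 8.87 at day 5, and 11.59 and 11.55 against 9.10 and 9.38 at day 3. In females at day 5 it was 10.84 and 10.79 in the pools labelled Adeno-Cux2 and 10.51 and 11.32 in the Adeno-CMV pools, so that those groups overlapped and the female CMV pools lay above the CMV pools of the males. The ratios were 1.46 ± 0.19 (2.75-fold, adjusted p = 0.0027) and 2.33 ± 0.19 (5.02-fold, adjusted p = 0.000152) in males, and −0.10 ± 0.19 in females (adjusted p = 0.79). The difference between the sexes at day 5 was −1.56 ± 0.27 (95% interval −2.21 to −0.92) and missed the threshold after adjustment (adjusted p = 0.0873). The male day 5 call was lost without either of its arrays (adjusted p = 0.0528 and 0.0928).

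Ddit3, which encodes the stress factor CHOP, rose in males with 0.49 and 0.58 on the day 5 arrays and 1.25 on both day 3 arrays, giving 0.54 ± 0.07 (adjusted p = 0.00326) and 1.25 ± 0.07 (2.38-fold, adjusted p = 4.74e-05). In females it was at 0.26 ± 0.07 (adjusted p = 0.0519). Ddit4, an inhibitor of mTORC1 signalling, rose in all 3 treated comparisons. Its arrays gave 0.77 and 0.85 in day 5 males, 0.64 and 0.50 in day 5 females, and 1.47 and 0.97 in day 3 males, all above 0. The model values were 0.81 ± 0.10 (adjusted p = 0.00228), 0.57 ± 0.10 (adjusted p = 0.0104) and 1.22 ± 0.10 (adjusted p = 0.00016). Sesn2, another restraint on mTORC1 that senses leucine, rose in males at day 5 (0.52 and 0.58, 0.55 ± 0.06) and day 3 (1.12 and 1.06, 1.09 ± 0.06) and was at 0.09 ± 0.06 in females (adjusted p = 0.404). Its other probe gave 1.05 at day 3 and 0.12 in males at day 5.

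Chac1, an enzyme that breaks down glutathione and a known ATF4 target, went the other way although its promoter holds a CARE core. Its arrays gave −0.74 and −0.81 in day 5 males, −0.79 and −0.75 in day 5 females, and −0.66 and −0.03 in day 3 males. It fell by 0.77 ± 0.12 in males at day 5 (adjusted p = 0.00529) and by 0.77 ± 0.12 in females (adjusted p = 0.00603), and was at −0.34 ± 0.12 at day 3 (adjusted p = 0.055). The fall was not called without replicate 2 in males (adjusted p = 0.159) or in females (adjusted p = 0.0854). Trib3, a pseudokinase that restrains ATF4, was called in no comparison, and its day 3 arrays disagreed (−0.32 and 1.19). Atf4 itself was at 0.08 ± 0.07, 0.03 ± 0.07, −0.02 ± 0.07 and −0.13 ± 0.07 in untreated mice, males at day 5, females at day 5 and males at day 3, with all 8 array values between −0.20 and 0.11. Its 95% interval at male day 3 ran from −0.31 to 0.04. Atf5, a related factor abundant in liver, lay between −0.23 and 0.17 and was not called either.

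**Figure D3:**
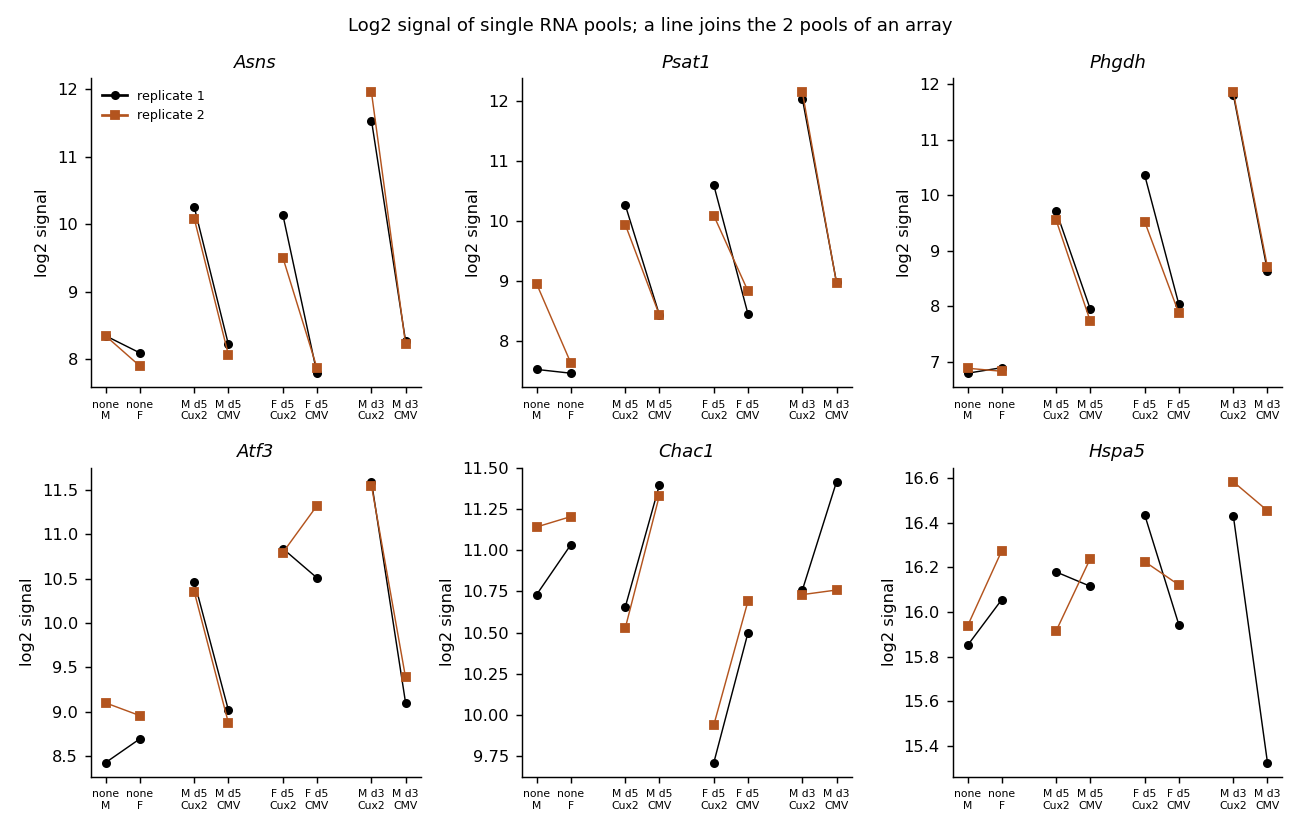
Log2 signal (y axis) of 6 members in each RNA pool (x axis; M male, F female, d5 and d3 days after virus, Cux2 and CMV the virus, none untreated), with a line joining the pools hybridised on 1 array, black for replicate 1 and brown for replicate 2. Asns, Psat1 and Phgdh separate Cux2 from CMV pools in each treated comparison, Atf3 does so in males only, and the female CMV pools of Atf3 stand at 10.51 and 11.32.

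Of the 4 amino acid transporters among the members, Slc3a2 and Slc7a5 rose in all 3 treated comparisons. Slc3a2, the heavy chain shared by several exchangers, gave 0.51 and 0.33 in day 5 males, 0.36 and 0.22 in day 5 females, and 0.59 and 0.54 in day 3 males. The model values were 0.42 ± 0.06 (adjusted p = 0.00464), 0.29 ± 0.06 (adjusted p = 0.0198) and 0.56 ± 0.06 (adjusted p = 0.000515). Slc7a5, the light chain that imports leucine and other large neutral amino acids, gave 0.46 and 0.34, 0.66 and 0.24, and 1.06 and 1.09, with 0.40 ± 0.09 (adjusted p = 0.0204), 0.45 ± 0.09 (adjusted p = 0.0134) and 1.07 ± 0.09 (2.11-fold, adjusted p = 0.00014). All arrays of both genes lay above 0. Of the day 5 calls, those of Slc3a2 were lost under 2 of the 16 alternatives in males and 7 in females. Those of Slc7a5 were lost under 4 and 2, while the day 3 calls of both genes were kept under all 16. Slc7a11, the cystine importer, was a dim probe. It was not well above background in either Adeno-CMV pool of the males. As measured by this probe, the male pools labelled Adeno-Cux2 were 1.53-fold higher at day 5 (log2 signal means 6.63 and 6.02). At day 3 they were 1.94-fold higher (7.14 and 6.18). It was not well above background in the untreated pools either, and no p is given, since it was kept only through the pools where it is high. Its male arrays gave 0.64 and 0.59 at day 5 and 0.83 and 1.08 at day 3. In females the arrays gave 0.76 and 0.22. Its 2 other probes that passed the filter gave smaller values, 0.20 and 0.25 at male day 5 and 0.51 and 0.48 at male day 3. Its fitted day 3 ratio ran from 0.25 without background subtraction to 4.10 with the log ratios of the scanner software. Slc7a1, a carrier of cationic amino acids, was not called, with ratios from −0.18 to 0.13.

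The charging enzymes were near or below 0. Aars, which charges alanine and holds 2 CARE cores, was at −0.18 and −0.29 on the day 3 arrays and fell by 0.23 ± 0.06 (adjusted p = 0.0261). This call was lost under 8 of the 16 alternatives (adjusted p up to 0.299), and its other probes ran from −0.33 to 0.05, while it was at 0.00 ± 0.06 in males and 0.04 ± 0.06 in females at day 5. Nars, for asparagine, was called in no comparison (0.03 to 0.07). Vldlr, a lipoprotein receptor induced through ATF4 in stressed hepatocytes, gave 1.12 and 1.42 in males at day 3 and rose by 1.27 ± 0.13 (2.41-fold, adjusted p = 0.000404), although its other probe gave 0.44. It was at 0.47 ± 0.13 in males at day 5 (adjusted p = 0.0509) and −0.05 ± 0.13 in females. Muscle markers were higher in the Adeno-CMV pools of that female comparison.

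Among the ER genes the clearest rises were in males at day 3. Dnajc3, an inhibitor of the eIF2 alpha kinase PERK and a co-chaperone, gave 0.75 and 0.76 and rose by 0.76 ± 0.09 (1.69-fold, adjusted p = 0.000587), the one call among the ER genes, in any comparison, that was kept under all 16 alternatives. Of its 3 other probes, 2 gave 0.56 and 0.57 and the remaining one 0.09. Hspa5, the chaperone BiP that holds the stress sensors inactive, had log2 signals of 16.43 and 16.58 against 15.33 and 16.45, so that the arrays gave 1.10 and 0.13 and the low value lay in 1 CMV pool. It was called at 0.61 ± 0.13 (1.53-fold, adjusted p = 0.00962), and without replicate 1 it was at 0.28 ± 0.12 (adjusted p = 0.148). Hsp90b1, the ER form of HSP90, was similar, at 0.66 and 0.18 (0.42 ± 0.10, adjusted p = 0.0145), and was lost in the same way (0.23 ± 0.13, adjusted p = 0.261). Dnajb9, a BiP co-chaperone and target of XBP1, gave 0.37 and 1.03 (0.70 ± 0.11, adjusted p = 0.00266) and was lost without replicate 2 (0.52 ± 0.16, adjusted p = 0.0655). Edem1, which sends misfolded glycoproteins to degradation, gave 0.34 and 0.27 and rose by 0.31 ± 0.08 (adjusted p = 0.0187), with 0.59 and −0.06 on its other probes. Creld2, a secreted ER stress protein, gave 0.31 and 0.17 and rose by 0.24 ± 0.07 (adjusted p = 0.0304). Pancreas markers were high on replicate 2, where Dnajb9 was the higher, and near 0 on replicate 1, where Hspa5 and Hsp90b1 were.

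At day 5 the only called ER members were lower. Creld2 gave −0.63 and −0.67 in males and fell by 0.65 ± 0.07 (1.57-fold, adjusted p = 0.00121), while in females it was at −0.04 ± 0.07. Sdf2l1, a BiP cofactor, gave −0.50 and −0.41 in males and fell by 0.45 ± 0.10 (adjusted p = 0.0216), and was at 0.00 ± 0.10 in females. Herpud1, of the membrane complex that removes misfolded proteins, fell in both sexes, with −0.65 and −0.66 in males (−0.66 ± 0.17, adjusted p = 0.0416) and −0.41 and −0.92 in females (−0.67 ± 0.17, adjusted p = 0.0396). These male calls were lost without replicate 2 (Creld2 at adjusted p = 0.0558), and those of Sdf2l1 and Herpud1 also without replicate 1. The Herpud1 calls were lost under 6 of the 16 alternatives in males and 8 in females. In untreated males over females Herpud1 was at −0.60 and was not called. Pdia3, Pdia4 and Pdia6 (disulfide isomerases), Calr and Canx (lectin chaperones) and Syvn1 (the ubiquitin ligase HRD1) were called in no comparison. Their treated ratios lay between −0.35 (Calr, males at day 5) and 0.38 (Pdia6, males at day 3). At day 5, 1 other Pdia6 probe gave −0.79 in males and −0.59 in females. The remaining Pdia6 probes gave −0.12 and −0.28 in males, and 0.04 and 0.08 in females. The RNA of Xbp1 and of Ern1, which encodes the sensor IRE1 alpha, was not called in a treated comparison.

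**Figure D4:**
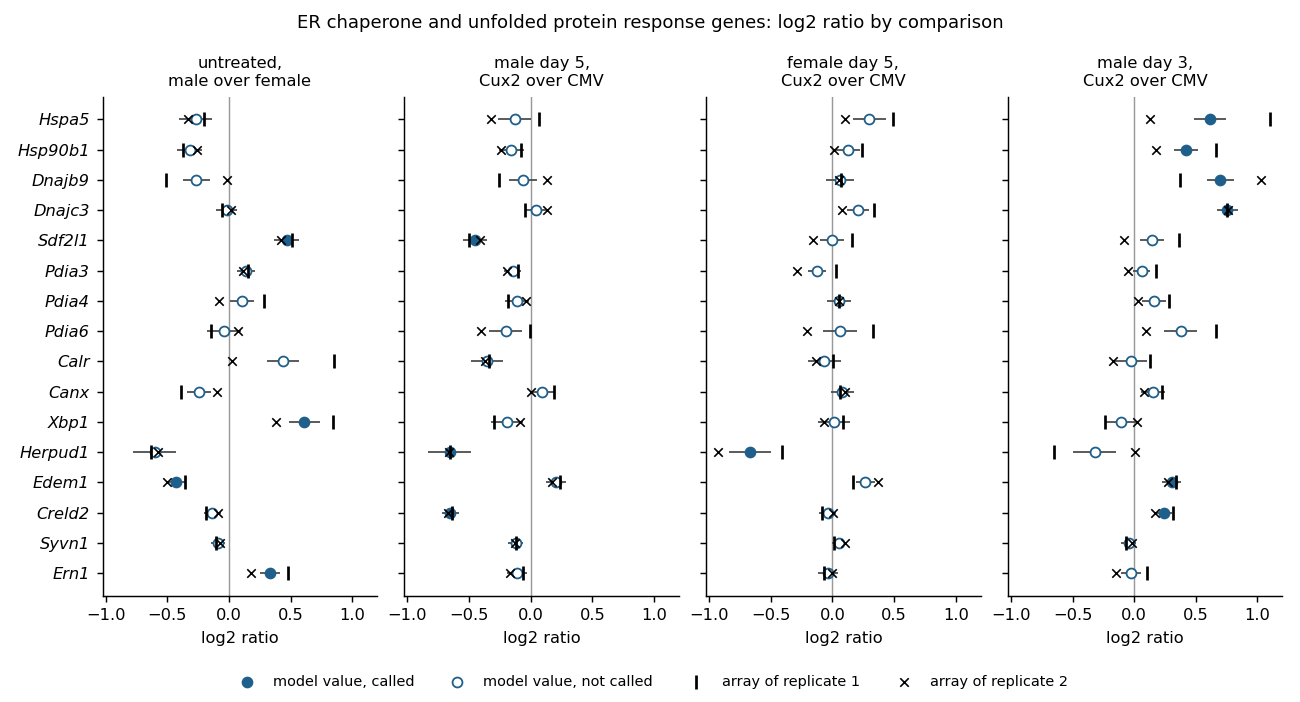
Log2 ratios (x axis, from −1 to about 1) of the 16 ER chaperone and unfolded protein response genes (rows) in the 4 comparisons (panels): circles are model values with their standard error, filled where called, bars mark the array of replicate 1 and crosses that of replicate 2. At male day 3 Dnajc3 has both arrays at 0.75 to 0.76, whereas Hspa5 has 1.10 and 0.13.

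The male response at day 5 was then set against that at day 3. The difference was called lower at day 5 for 7 of the 19 ATF4 and amino acid genes and 6 of the 16 ER genes, and higher for 0 of either (limma; 1 and 0 at an unadjusted p under 0.05). Among all genes 8.1% were called higher and 4.82% lower. The day 3 ratio lay above the day 5 ratio in 16 of 19 and in 16 of 16, and in 46.7% of all genes. The largest called differences were those of Asns (−1.47 ± 0.25, adjusted p = 0.0147), Phgdh (−1.37 ± 0.20, adjusted p = 0.00903) and Creld2 (−0.89 ± 0.10, adjusted p = 0.00485), while Psat1 at −1.45 ± 0.44 missed the threshold (adjusted p = 0.0799). These calls were lost for every member without one or the other male day 5 array, and the arrays of day 5 and day 3 lay on different slides, so that slide and time cannot be told apart.

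No member was called as different between females and males at day 5 (limma, 0 of 35), where 0.036% of all genes were called higher and 0.171% lower. At an unadjusted p under 0.05 there were 7, namely Atf3, Atf5, Ddit3, Sesn2, Vldlr, Sdf2l1 and Creld2. The share of all genes at an unadjusted p under 0.05 is not given here or elsewhere, so such counts cannot be set against it. The ratios of Asns, Psat1 and Phgdh lay close together in the sexes, with differences of −0.03 (95% interval −0.63 to 0.57), 0.03 (−1.02 to 1.08) and 0.19 (−0.28 to 0.67). The largest differences were those of Atf3 and of Creld2 (0.61 ± 0.10, adjusted p = 0.0768), and slide and sex cannot be told apart. Across the 19 genes the male day 5 ratios correlated with the female ones at a Pearson r of 0.862, and with the male day 3 ones at 0.957. Across the 16 ER genes these values were 0.703 and 0.447. Genes are not independent replicates, so no test is given.

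**Figure D5:**
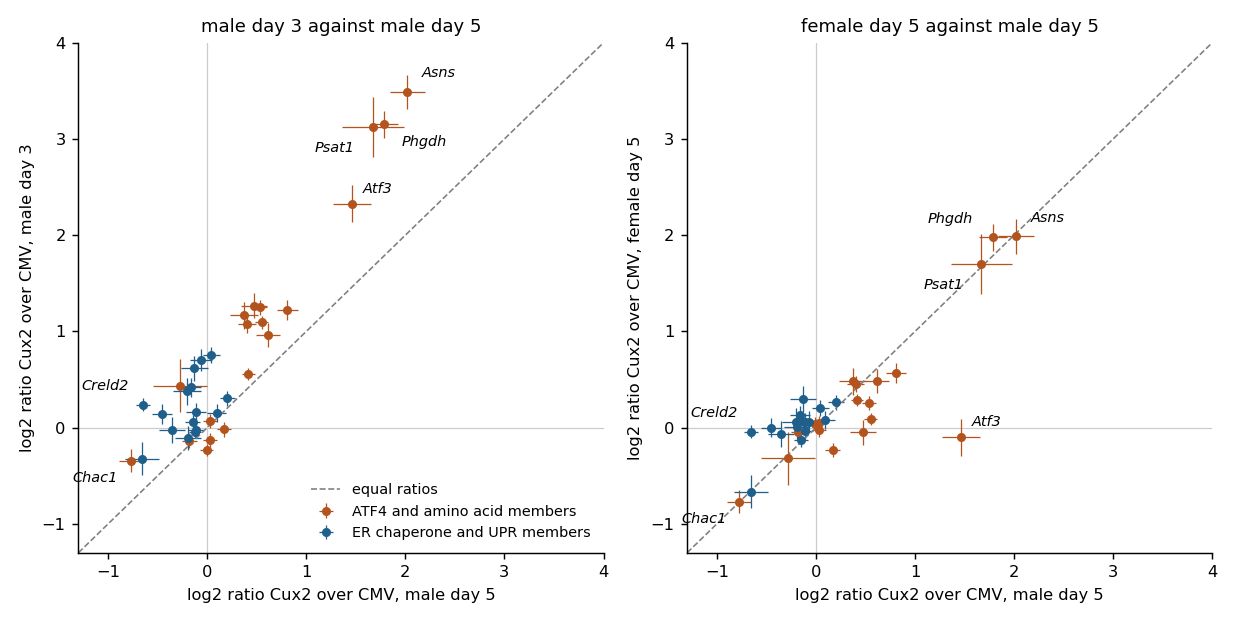
Log2 ratios of all 35 members in males at day 5 (x axis) against males at day 3 (left, y axis) and females at day 5 (right, y axis), brown for ATF4 and amino acid genes and blue for ER genes, with standard errors and a dashed line of equal ratios. In the left panel 32 of the 35 points lie above the line, and in the right panel Atf3 (1.46 in males, −0.10 in females) lies furthest from it.

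Without virus, the sexes differed in a few of these genes. In untreated males Ddit4 was lower by log2 values of −1.95 and −2.02 (−1.99 ± 0.10, 3.96-fold lower, adjusted p = 0.000263). Vldlr was lower at −2.18 and −1.59 (−1.88 ± 0.13, 3.69-fold lower, adjusted p = 0.000554), and Sesn2 at −0.81 and −0.67 (−0.74 ± 0.06, adjusted p = 0.00122). These 3 calls held under all alternatives, although the second probe of Sesn2 gave −0.13. Slc3a2 gave −0.21 and −0.39 and was lower (−0.30 ± 0.06, adjusted p = 0.0301), and Aars gave 0.27 and 0.29 and was higher (0.28 ± 0.06, adjusted p = 0.0409). Each of these calls was lost under 12 of the 16 alternatives. In all, 1 of the 19 was higher in males and 4 lower, against 4.92% and 6.13% of all genes. Of the ER genes 3 were higher. Xbp1 gave 0.85 and 0.38 (0.61 ± 0.13, adjusted p = 0.0318), Sdf2l1 gave 0.51 and 0.42 (0.47 ± 0.10, adjusted p = 0.0327) and Ern1 gave 0.48 and 0.18 (0.33 ± 0.08, adjusted p = 0.0496). Edem1 was lower, with −0.36 and −0.51 (−0.43 ± 0.08, adjusted p = 0.0196), and its other probes gave 0.16 and −0.04. No ER call was left without untreated replicate 1. Ddit4, Sesn2, Slc3a2, Vldlr and Edem1 were called lower in untreated males and higher in males 3 days after Adeno-Cux2, as were 3.07% of all genes.

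Other genes of the same pathways were counted from lists written by name, with no test of a list. Of all genes, 13.9% were called higher and 4.95% lower in males at day 5, and 12.8% and 6.3% in females. In males at day 3 these shares were 23.7% and 20.3%. Of 23 other ATF4 targets measured, 5 were higher and 1 lower in day 5 males, 5 and 2 in day 5 females, and 10 and 5 in day 3 males (medians 0.01, 0.07 and 0.18). The neutral amino acid transporters Slc1a4 and Slc1a5 and the stress-induced nuclear protein Nupr1 had the largest called ratios in each. Slc1a4 rose by 2.09 ± 0.19 in males at day 5, 1.73 ± 0.29 in females and 1.92 ± 0.19 in males at day 3, and Slc1a5 by 1.41 ± 0.10, 1.21 ± 0.10 and 1.96 ± 0.10. Nupr1 rose by 1.48 ± 0.24, 1.20 ± 0.24 and 2.15 ± 0.24. Of 16 other tRNA synthetases, 2 were higher and 0 lower in males at day 5 (limma, 2 and 2 at an unadjusted p under 0.05), 2 and 1 in females, and 5 and 3 in males at day 3, with Vars for valine at 0.32 ± 0.07, 0.41 ± 0.07 and 0.64 ± 0.07. Tars, for threonine, fell by 0.41 ± 0.11 in females and by 0.72 ± 0.11 in males at day 3, the largest called change of that list there.

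Of 15 stress sensors and regulators, 2 were higher in males at day 5 and 0 in females (limma, with 5 and 4 at an unadjusted p under 0.05), and at male day 3 the calls were 7 higher and 2 lower. Eif2ak3, which encodes the kinase PERK, rose by 0.51 ± 0.11 at male day 5 and 0.85 ± 0.11 at day 3. Of 23 other ER folding genes, 0 were higher and 2 lower in males at day 5 (limma, 1 and 6 at an unadjusted p under 0.05), 2 and 1 in females, and 8 and 5 in males at day 3, where Ssr1, of the translocon-associated complex, rose by 0.82 ± 0.10 and Ero1b, an oxidase of disulfide formation, fell by 0.75 ± 0.08. Of 15 other ER-associated degradation genes, 1 was higher and 1 lower in day 5 males, 2 and 1 in day 5 females, and 5 and 3 in day 3 males, with Edem2 at 0.40 ± 0.06, 0.90 ± 0.06 and 0.83 ± 0.06. Derl2, of the Derlin family of the ER membrane, fell in all 3, by 0.36 ± 0.07, 0.54 ± 0.07 and 0.59 ± 0.07, and its relative Derl3 fell by 1.15 ± 0.32 in males at day 3. Cytosolic heat shock genes gave 0 calls among 12 at day 5 in either sex (limma, with 4 lower in males, and 1 higher and 1 lower in females, at an unadjusted p under 0.05), and 5 were higher in males at day 3, among them Hspa1a, an inducible HSP70 (0.97 ± 0.14). Of 12 targets of the oxidative stress factor NRF2, 6 were higher and 1 lower in males at both times and 3 and 1 in females. The transporter Abcc4 reached 2.32 ± 0.13 in males at day 5, 1.76 ± 0.13 in females and 2.65 ± 0.13 in males at day 3. Beside the counts of these lists, 13.9% of all genes were higher and 4.95% lower in males at day 5. The shares were 12.8% and 6.3% in females, and 23.7% and 20.3% in males at day 3.

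Markers of other cells moved in the same pools. Among all genes the shares called higher and lower were 13.9% and 4.95% in males at day 5, and 12.8% and 6.3% in females. They were 23.7% and 20.3% in males at day 3. Of 18 macrophage markers, 17 were higher in males at day 5, 14 in females, and 10 higher and 4 lower in males at day 3. Their summed signal in males at day 5 was 149000 to 176000 in the pools labelled Adeno-Cux2 and 47640 to 56720 in the Adeno-CMV pools. Of 11 neutrophil markers, 9 were higher in each treated comparison, and of 12 stellate cell markers 10, 10 and 8. Of 14 hepatocyte markers, 9 were lower and 1 higher in males at day 3 (median −0.41), 2 lower and 4 higher in males at day 5 and 3 lower and 4 higher in females. Pancreas markers were called in no comparison (limma, 0 of 12, with 1 at an unadjusted p under 0.05, in females), but their summed signal ranged from 1476 to 277600 in the female pools labelled Adeno-Cux2. The part of these cells in the values of the 35 genes was not tested.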

How the data were processed

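The scanner files came from Agilent Feature Extraction, version 9.5.3.1 on the slide of the untreated and male day 5 arrays and 10.7.1.1 on the slide of the others, per the file headers. In the deposited files, intensity values are median pixel brightnesses of spots and local backgrounds, not normalized. The deposited LogRatio is a log10 ratio of red over green after the software's own normalization. Deposited spot flags hold 0 or 1. The array's annotation is on mm8.

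Median intensities were background-corrected by normexp (offset 50) and loess-normalized within arrays in limma 3.58.1 (R 4.3.3), with the ratio turned so that treated or male pools are the numerator. A probe was kept if 1 of its channels or more was well above background on each array of some comparison. One model covered all 8 arrays, with a term for the dye, which is also the replicate number (3 residual degrees of freedom, prior 3.62). Differences between comparisons were contrasts in that model. No member spot was saturated.

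The members and all lists were chosen with earlier results of these data known. Every member is described. Values on every array, as ratios or as pool signals, are given for each call of a member in a comparison, and up to 3 called genes per other list were eligible to be named. Lists with no result above are those of T and natural killer cells, B and plasma cells, endothelium and cholangiocytes. In males at day 5 these had 10 of 13, 4 of 9, 5 of 12 and 5 of 10 members called higher and 0 lower. In females 5, 3, 7 and 7 were higher and 0, 1, 0 and 0 lower, in males at day 3 the counts were 9, 2, 3 and 5 higher and 1, 2, 2 and 1 lower, and in untreated males 0, 0, 0 and 1 higher and 3, 0, 2 and 1 lower. The shares of all genes called in each comparison are given above. The alternatives were other background and normalization steps, no dye term, no filter, all probes averaged, an intensity trend, each slide alone and each array left out.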

Additional observations from a re-analysis of the deposited data

Results flagged for a closer look

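The male response at day 5 was lower than that at day 3, by a test of the difference itself, for 13 members. Among all genes 4.82% were called lower in that contrast and 8.1% higher. None of these 13 calls was kept under every alternative. The log2 differences (day 5 minus day 3, limma) were −1.473 ± 0.252 for Asns (adjusted p = 0.0147), −1.366 ± 0.197 for Phgdh (adjusted p = 0.00903), −0.892 ± 0.099 for Creld2 (adjusted p = 0.00485), −0.798 ± 0.198 for Psph (adjusted p = 0.0456) and −0.793 ± 0.187 for Vldlr (adjusted p = 0.0391). They were −0.765 ± 0.159 for Dnajb9, −0.744 ± 0.189 for Hspa5, −0.713 ± 0.103 for Ddit3, −0.712 ± 0.122 for Dnajc3, −0.673 ± 0.122 for Slc7a5, −0.596 ± 0.140 for Sdf2l1, −0.578 ± 0.142 for Hsp90b1 and −0.541 ± 0.091 for Sesn2. The arrays compared lie on different slides, which cannot be told apart from time.

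Some members had opposite signs on every array of the comparisons set against each other, without passing the test of the difference. The share of all genes that did so is not given, so the number of members cannot be set against it. Between day 5 and day 3 in males the members were Pdia4 (−0.272 ± 0.139, adjusted p = 0.263) and Pdia6 (−0.580 ± 0.193, adjusted p = 0.103). Between females and males at day 5 they were Atf5 (−0.403 ± 0.105, adjusted p = 0.204), Hsp90b1 (0.285 ± 0.142, adjusted p = 0.578), Pdia4 (0.169 ± 0.139, adjusted p = 0.782) and Syvn1 (0.178 ± 0.085, adjusted p = 0.557).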

How the results depend on the processing

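Over the alternatives, 796 of 1011 values of the 64 member calls stayed called in the same direction, 215 lost the call and 0 reversed. Of the calls, 20 were kept under every alternative and 33 under every one that left out no array. The alternatives change several steps, and the cause of a lost call was not tested. With the software's log ratios, calls among all genes were 1109 in untreated mice, 2596 in females at day 5, 0 for female against male day 5 and 649 for male day 5 against day 3. The ATF4 and amino acid genes then had 3 calls in untreated mice and 4 in females, and a male day 3 median of 1.17. The ER genes had 0 calls in untreated mice and in females, 1 in day 5 males, and 2 members were called for day 5 against day 3. Without background subtraction, all genes had 1596 calls in untreated mice and 1 for female against male, ER genes had 1 in untreated mice and 0 in females, the day 3 median was 0.63 and the day contrast had 7 members. With median centring, untreated calls were 3 and 2 in the first and second group, the male day 5 ER median was −0.20 and the day 3 median of the first group 1.25. Averaging all probes gave 5 ER calls in males at day 5, with 0 higher and 5 lower. Untreated and female ER medians were then 0.0595 and 0.0034, and the day 3 median of the first group was 0.85. Without the replicate block (the dye term) there were 2 ER calls in untreated mice, 8 members in the day contrast and 21 genes for female against male, and an intensity trend gave 26. On their own slide females had 0 ER calls. Same-numbered arrays of different comparisons had deviations that correlated at −0.09 to 0.30. The replicate number is also the dye, so these correlations cannot tell a dye effect from a pairing. The numbers were not taken as pairing the mice.

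With single arrays left out, all genes called ranged from 535 to 3973 in untreated mice, 1044 to 5063 in males at day 5, 1344 to 5211 in females, 5423 to 10893 in males at day 3, 0 to 54 for female against male and 36 to 3871 for day 5 against day 3. ATF4 and amino acid genes called ranged from 3 to 4 in untreated mice, 3 to 13 in males at day 5 and 3 to 10 in females. ER genes ranged from 0 to 5, 0 to 3, 0 to 1, and 2 to 7 in males at day 3, and the day contrast from 0 to 16 members. Medians ranged from −0.119 to 0.0866 and −0.142 to −0.0462 in untreated mice for the first and second group, 0.0917 to 0.295 in females and 0.96 to 1.07 in males at day 3 for the first. The 2 arrays per comparison limit the precision, and the dim Slc7a11 probe lost its day 5 calls without background subtraction (0.14 in males and 0.11 in females).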

Other observations

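Hmox1, which encodes haem oxygenase and was listed with the NRF2 targets, was the only gene of the 7 pathway lists called as different between females and males at day 5, at −0.87 ± 0.10 (limma, adjusted p = 0.0475). It rose by 1.10 ± 0.07 in males at day 5 (adjusted p = 0.000168). With the software's log ratios 0 genes were called between females and males at day 5, so this call was lost there. Slide and sex cannot be told apart in the difference.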
